A study of Mus musculus with 6 samples.

Results

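The cytosolic ribosomal protein genes encode the proteins of the small (40S) and large (60S) subunits of the ribosome that works in the cytoplasm. They were taken as the protein-coding entries of the deposited gene table named Rpsa, Rplp0, Rplp1, Rplp2, or Rpl or Rps followed by a digit. Pseudogenes, the S6 kinases, Rps27l and Rps19bp1 were left out by name. This gave 83 of 25251 genes: 31 of the small subunit, 46 of the large subunit and 6 paralogues, that is, further copies that differ from the usual gene in sequence or in the tissues that use them. No measured value entered the choice, and the paralogues Rpl10l and Rps4l were not analysed here.

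The genes were measured by bulk RNA sequencing of total RNA from subcutaneous tumours of CT26, a mouse colon cancer cell line, grown in BALB/c mice. Irinotecan (CPT-11), a prodrug whose product traps topoisomerase I on DNA, was given to 3 of the labelled samples by intraperitoneal injection at 25 mg/kg every 4 days, and the other 3 received solvent. The series text calls the profiles duplicates, but each group has 3 labelled samples, and n is taken from the labels. All 6 carry the genotype label WT, and randomization was at a tumour volume of 100 mm3. Nothing in the labels ties the samples to separate mice, and p-values therefore speak only of the spread among these 6 samples. No source used here states when tumours were collected relative to dosing.

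A ribosome holds most of its proteins in equal number, and the genes are among the most strongly transcribed of any growing cell. Their mRNAs begin with a C followed by a run of pyrimidines, the TOP motif, through which mTOR and LARP1 set how well they are translated. Free Rpl5 and Rpl11 bind Mdm2 and so link a shortage of ribosome assembly to p53.

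Depth was similar in the 6 libraries, at 13940650 to 15656894 recovered reads, but the first irinotecan library stood apart from the other 5. Its correlation with them over all genes tested, on log2 normalized counts, was 0.945 to 0.949, against 0.973 to 0.979 for the 10 other pairs, and 19040 genes had a read in it, against 20571 to 21426 elsewhere. Over the ribosomal protein genes the same correlations were 0.928 to 0.950 and 0.983 to 0.996. Results are therefore given with and without it. As for the tissue, Krt8, Krt18, Krt20 and Cdh1 were the 4 of 8 epithelial and colon markers with a mean of at least 10 normalized counts, and Epcam, Krt19, Vil1 and Cdx2 lay under it. Leukocyte markers (6 of 8 above that mean) summed to 2774, 3824 and 3749 normalized counts in the irinotecan libraries, against 3971, 4381 and 3843 in the controls. The first irinotecan library was the lowest by far, and the others lay just under the lowest control. In bulk tissue, fewer cells of a type and less RNA per cell cannot be told apart.

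Among the smallest ribosomal proteins, coding sequences are shown for genes with a paralogue in the family. For Rps27 and Rps27rt the likeness bears on how their reads were assigned. Rps27rt (chr9:114982366-114982739, minus strand, GRCm38), a retrocopy annotated as coding, and its parent Rps27 (chr3:90212522-90213651, minus strand) both hold 252 coding bases with 0 mismatches between them, so that a read inside the coding sequence is the same for both. Rpl39 (chrX:37082520-37085402, minus strand) and its paralogue Rpl39l (chr16:10170226-10174911, plus strand), known for its use in male germ cells, both encode 51 residues and differ at 23 of 153 bases (84.97% identity). This lies below the 95% identity used here for near-identical copies. The sequences are printed 5′ to 3′ on the coding strand from GENCODE M21, without the stop codon. Capitals mark the bases at which Rpl39l differs from Rpl39.
Rps27rt: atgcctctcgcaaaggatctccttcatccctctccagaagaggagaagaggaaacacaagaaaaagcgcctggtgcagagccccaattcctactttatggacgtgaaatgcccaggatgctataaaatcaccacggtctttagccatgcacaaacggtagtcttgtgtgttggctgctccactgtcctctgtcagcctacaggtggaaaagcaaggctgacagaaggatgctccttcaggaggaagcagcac
Rpl39: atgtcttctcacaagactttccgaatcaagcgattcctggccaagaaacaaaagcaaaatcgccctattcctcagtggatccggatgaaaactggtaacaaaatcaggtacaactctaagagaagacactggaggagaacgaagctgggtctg
Rpl39l: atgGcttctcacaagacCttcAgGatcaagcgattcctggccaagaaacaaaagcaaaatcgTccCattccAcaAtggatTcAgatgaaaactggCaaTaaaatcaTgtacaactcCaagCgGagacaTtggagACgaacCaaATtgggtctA

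No ribosomal protein gene passed the test with all 6 libraries. Of the 83 genes, 82 had a mean of at least 10 normalized counts and were tested with limma on log2(normalized count + 1), a scale that understates changes of low genes. None of the 82 was called at an adjusted p under 0.05, as was none of the 14639 genes tested (0% in each direction). At an unadjusted p under 0.05, 6 were higher and 3 lower in irinotecan tumours, against 2.68% and 3.08% of all genes. The 3 irinotecan values lay above all 3 controls for 5 genes (6.10%, against 6.68% of all genes) and below them for 12 (14.6%, against 7.89%), and in 65 genes the groups overlapped. Without the first irinotecan library 12 genes were higher and 4 lower at an unadjusted p under 0.05, against 4.34% and 5.15% of all genes. The 2 remaining irinotecan values then lay above all controls for 10 members and below them for 12, against 12.8% and 13.7% of all genes.

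The median log2 fold change of irinotecan over control was -0.17 over the 82 genes, of which 24 were positive (29.3%). Over all genes tested the median was -0.01 and 48.2% were positive. Most of this shift lay in 1 library. The median deviation from the control mean was -0.36, 0.02 and -0.06 in the 3 irinotecan libraries, against 0.06, -0.07 and 0.02 in the controls. Without the first irinotecan library the median was -0.04 with 33 of 82 positive, beside 0.00 and 49.6% over all genes. The members' share of recovered reads was 3.73%, 5.29% and 4.97% in irinotecan tumours (4.66% ± 0.82, SD, n = 3) and 5.42%, 5.01% and 5.22% in controls (5.22% ± 0.20, SD, n = 3). The irinotecan library with the lowest share lay below all controls, while the other two lay within or just under their range. Over the members, the median SD of log2 values among replicates was 0.31 in irinotecan tumours and 0.14 in controls, and 0.12 between irinotecan libraries 2 and 3.

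**Figure D1:**
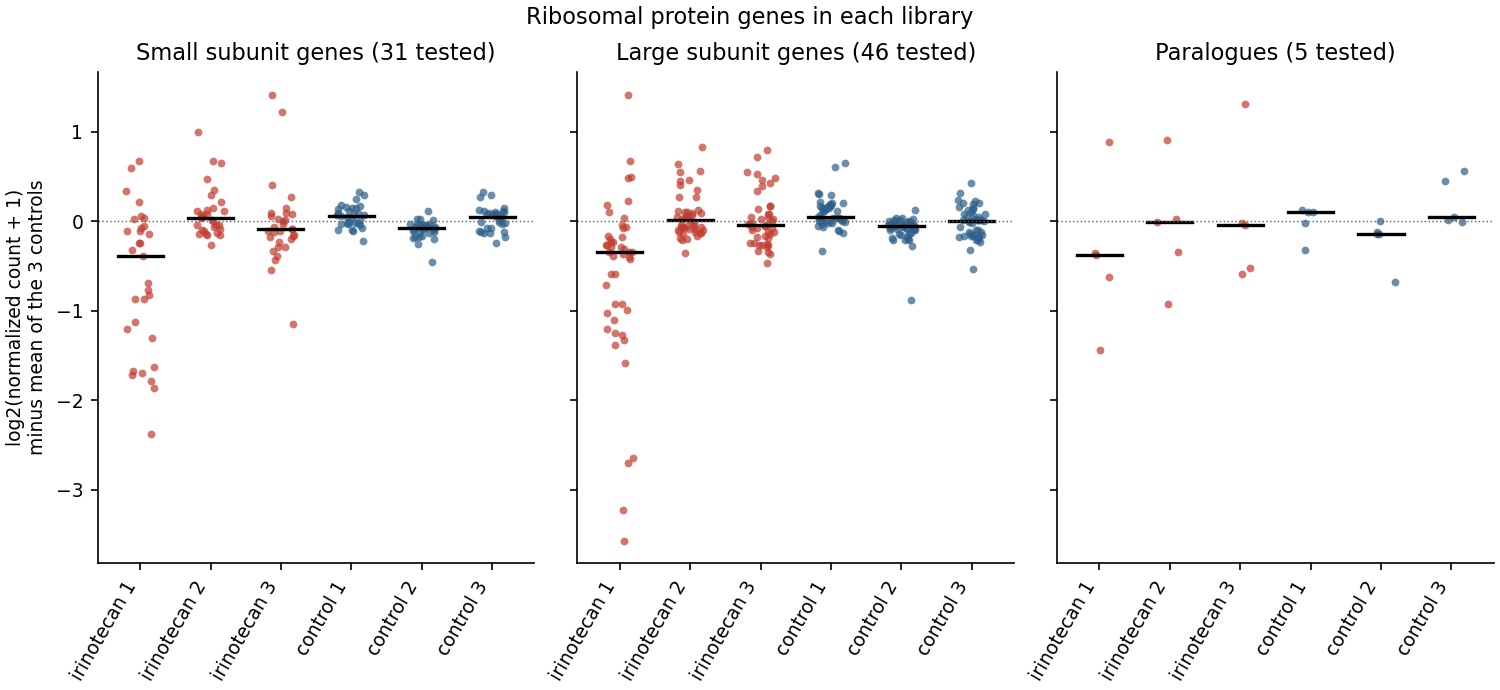
Each point is 1 tested gene in 1 library, as log2(normalized count + 1) minus the gene's mean over the 3 controls; black lines are medians over the genes of the panel. In the first irinotecan library points spread down to -3.57 and the small and large subunit medians lie at -0.39 and -0.34, whereas the medians of all other libraries lie close to 0.

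In the first irinotecan library 58 of the 82 genes (70.7%) lay below all 3 controls and 10 (12.2%) above them, where 41.2% of all genes lay below and 38.4% above. A drop by more than 1 on the log2 scale against the control mean was seen in 23 of the 82 (28.0%), against 13.7% of all genes and 33.7% of 1604 other protein-coding genes under 2000 bases. This library was thus also low for other short transcripts. Its median deviation was -0.61 over those 1604 genes and -0.55 over 77 mitochondrial ribosomal protein genes, against -0.02 over all genes. The median length of the ribosomal protein genes in the table was 1755 bases and that of all genes 3968. With GC and length trends removed within each library, the median log2 fold change of the members over all 6 libraries was -0.08, against -0.17 without that correction. Across the 82 genes, gene length had a rank correlation of 0.08 with the deviation in the first irinotecan library (Spearman's rho). Whether length accounts for the members' lower values in that library was not tested.

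Small and large subunit genes had similar values. The median log2 fold change was -0.18 over 31 small subunit genes, with 10 positive, and -0.17 over 46 large subunit genes, with 13 positive. Without the first irinotecan library the medians were -0.01 and -0.05. The difference of the medians, large minus small, was 0.04, -0.02 and 0.05 in the irinotecan libraries and -0.01, 0.01 and -0.04 in the controls. Summed counts per base gave a ratio of large over small subunit of 1.49, 1.45 and 1.44 in irinotecan tumours, against 1.48, 1.45 and 1.46 in controls, so that the groups overlapped.

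Among small subunit genes, Rps29, which encodes a zinc-binding protein of 56 residues that sits near the mRNA, showed the largest difference. Rps29 had 1354, 1797 and 2385 normalized counts in the irinotecan libraries, against 944, 856 and 896 in the controls. The lowest irinotecan value was above the highest control. Its log2 fold change was 1.0 (SE 0.20, limma adjusted p = 0.662), and without the first irinotecan library it was 1.2 (SE 0.13, limma adjusted p = 0.0171). It was then 1 of 2 genes called in the whole table (0.0137% of genes tested), both higher. DESeq2 on the recovered reads called Rps29 with all 6 libraries (1.04, adjusted p = 0.00508), as 1 of 28 genes higher and 19 lower (0.2% and 0.136%). A processed pseudogene with an identical copy of its coding sequence, Gm14303, had 222, 353 and 408 normalized counts in the irinotecan libraries, against 228, 171 and 197 in the controls. Rps29 summed with its near-identical copies gave 0.95, and 1.16 without the first irinotecan library (limma adjusted p = 0.0169, 1 member called, beside 0.0346% of genes higher and 0.0138% lower).

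Rps21, which takes part in the maturation of small subunit RNA, was the other small subunit gene above all controls. Rps21 had 3764, 2998 and 2852 normalized counts in the irinotecan libraries, against 2476, 2106 and 2499 in the controls. Its log2 fold change was 0.43 (SE 0.15, limma adjusted p = 0.743), and 0.31 without the first irinotecan library. Rps28, a small protein near the mRNA exit, split the irinotecan libraries. Rps28 had 184, 968 and 1413 normalized counts in the irinotecan libraries, against 742, 537 and 553 in the controls. The first irinotecan library was the lowest of all 6 and the other 2 the highest, so that the log2 fold change was 0.06 with it and 0.95 without it (limma adjusted p = 0.0853; DESeq2 adjusted p = 0.000182). Of the control reads of Rps28 and its near-identical copies together, 60.2% fell on Rps28. Summed with these copies the log2 fold change was -0.23 with the first irinotecan library and 0.58 without it (limma adjusted p = 0.0912).

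Rps15 and Rps20, proteins of the small subunit head, were among the 6 lowest members. Rps15 had 1347, 6301 and 6199.9 normalized counts in the irinotecan libraries, against 7458, 7151 and 6424 in the controls. Rps20 had 6228, 17868 and 13566 normalized counts in the irinotecan libraries, against 19615, 18925 and 20935 in the controls. Both genes lay below all controls in each irinotecan library, but the first library was the lowest by far. Their log2 fold changes were -0.90 (SE 0.53, limma adjusted p = 0.743) and -0.79 (SE 0.34, limma adjusted p = 0.743), and -0.16 and -0.35 without it. Rps24, Rps16 and Rps3a1 also lay below all controls in each irinotecan library, with log2 fold changes of -0.64, -0.42 and -0.54, none called. Without the first irinotecan library these were -0.11, -0.21 and -0.21.

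Small subunit proteins with further known roles were not called either. Rpsa, also known as a laminin receptor, had a log2 fold change of -0.09 (SE 0.16), and that of Rps3, which also acts in DNA repair, was -0.13 (SE 0.16). Rps6 had 15880.3, 14874 and 13831 normalized counts in the irinotecan libraries, against 13765, 13000.1 and 14101 in the controls. Rps6, the substrate of the S6 kinases, thus overlapped between groups, with a log2 fold change of 0.12 (SE 0.14). Rps27a is made as a fusion with ubiquitin and was the most uneven of this panel. Rps27a had 2338, 9991 and 3268 normalized counts in the irinotecan libraries, against 8194, 5267 and 8689.6 in the controls. Irinotecan libraries 1 and 3 lay below all controls and library 2 above them, for a log2 fold change of -0.77 (SE 0.48, limma adjusted p = 0.743). Without the first irinotecan library the log2 fold change of Rps27a was -0.34.

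Of the large subunit genes, Rpl35a and Rpl37 lay above all controls. Rpl35a had 476, 277 and 293 normalized counts in the irinotecan libraries, against 172, 181 and 180.1 in the controls. Rpl37 had 2822, 2657 and 2706 normalized counts in the irinotecan libraries, against 2226, 1940.5 and 1879 in the controls. Rpl35a, a gene mutated in Diamond-Blackfan anaemia, had a log2 fold change of 0.93 (SE 0.23, limma adjusted p = 0.743), and 0.68 without the first irinotecan library. Only 20.9% of the control reads of Rpl35a and its near-identical copies fell on Rpl35a itself, and the sum gave 0.66 (limma adjusted p = 0.746). The largest copy, Rpl35a-ps2, had 597, 629 and 881 normalized counts in irinotecan tumours, against 569, 532 and 474 in controls. Rpl37 had a log2 fold change of 0.44 (SE 0.13, limma adjusted p = 0.743) and 0.42 without that library.

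Rpl39, which lines the peptide exit tunnel, was higher in its group mean but overlapped. Rpl39 had 10064, 12663 and 9347 normalized counts in the irinotecan libraries, against 5674, 6663 and 9575 in the controls. The highest control exceeded the lowest irinotecan library, and the log2 fold change was 0.57 (SE 0.22, limma adjusted p = 0.743). Rpl37a and Rpl36a were called by DESeq2 only without the first irinotecan library, together with Rps28 and Rps29 (4 members higher and 0 lower, against 0.541% and 0.563% of genes). Rpl37a had 4492, 6127 and 5746 normalized counts in the irinotecan libraries, against 4271, 3676 and 4655 in the controls. Rpl36a had 1500.1, 2758 and 2959.6 normalized counts in the irinotecan libraries, against 2116, 1894 and 2035 in the controls. For Rpl36a the first irinotecan library was the lowest of the 6, and the log2 fold change was 0.20 with it and 0.51 without it.

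The lowest log2 fold changes of the family belonged to the large subunit genes Rpl35, Rpl23a, Rpl29 and Rpl28. Rpl35 and Rpl23a stand at the exit of the tunnel, where Rpl23a binds the signal recognition particle. Rpl35 had 483, 3531 and 3770.4 normalized counts in the irinotecan libraries, against 5262, 4325 and 4071 in the controls. Rpl23a had 551, 6164 and 6342 normalized counts in the irinotecan libraries, against 6778, 6606 and 6261 in the controls. Rpl28 had 1091, 6155 and 7537 normalized counts in the irinotecan libraries, against 8865, 7069 and 5702 in the controls. In all of these the first irinotecan library was the lowest by far, and the other two lay within or close under the control range. The log2 fold changes were -1.28 (SE 0.69) for Rpl35, -1.23 (SE 0.82) for Rpl23a and -0.94 (SE 0.64) for Rpl28. Without that library they were -0.31, -0.07 and -0.06. Rpl29 rested on 2, 17 and 14 reads in irinotecan tumours and 31, 9 and 22 in controls. Its value of -1.04 (SE 0.77) is limited by so few reads. Only 1.66% of the control reads of Rpl29 and its near-identical copies fell on Rpl29 itself. The sum gave -0.42, and 0.06 without the first irinotecan library.

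Besides Rpl35, the large subunit genes below all controls in each irinotecan library were Rpl32, Rpl10a, Rpl10, Rpl5 and Rpl7. Rpl32 had 4628, 10799 and 10079 normalized counts in the irinotecan libraries, against 13653, 11906 and 10814 in the controls. Rpl10a had 8733, 13049 and 11094 normalized counts in the irinotecan libraries, against 14539, 13574 and 14823 in the controls. For Rpl32 the first irinotecan library again was far lower than the rest, with a log2 fold change of -0.60 (SE 0.31) and -0.21 without it, whereas Rpl10a gave -0.40 (SE 0.17) and -0.25. Rpl10 joins the large subunit last and lets it enter translation, and its log2 fold change was -0.22 (SE 0.15). Rpl24, at the face between the subunits, had higher values in irinotecan libraries 2 and 3 only. Rpl24 had 69.8, 134 and 158 normalized counts in the irinotecan libraries, against 99.1, 74.2 and 99.7 in the controls. Its log2 fold change was 0.33 with all libraries and 0.68 without the first (limma adjusted p = 0.35).

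**Figure D2:**
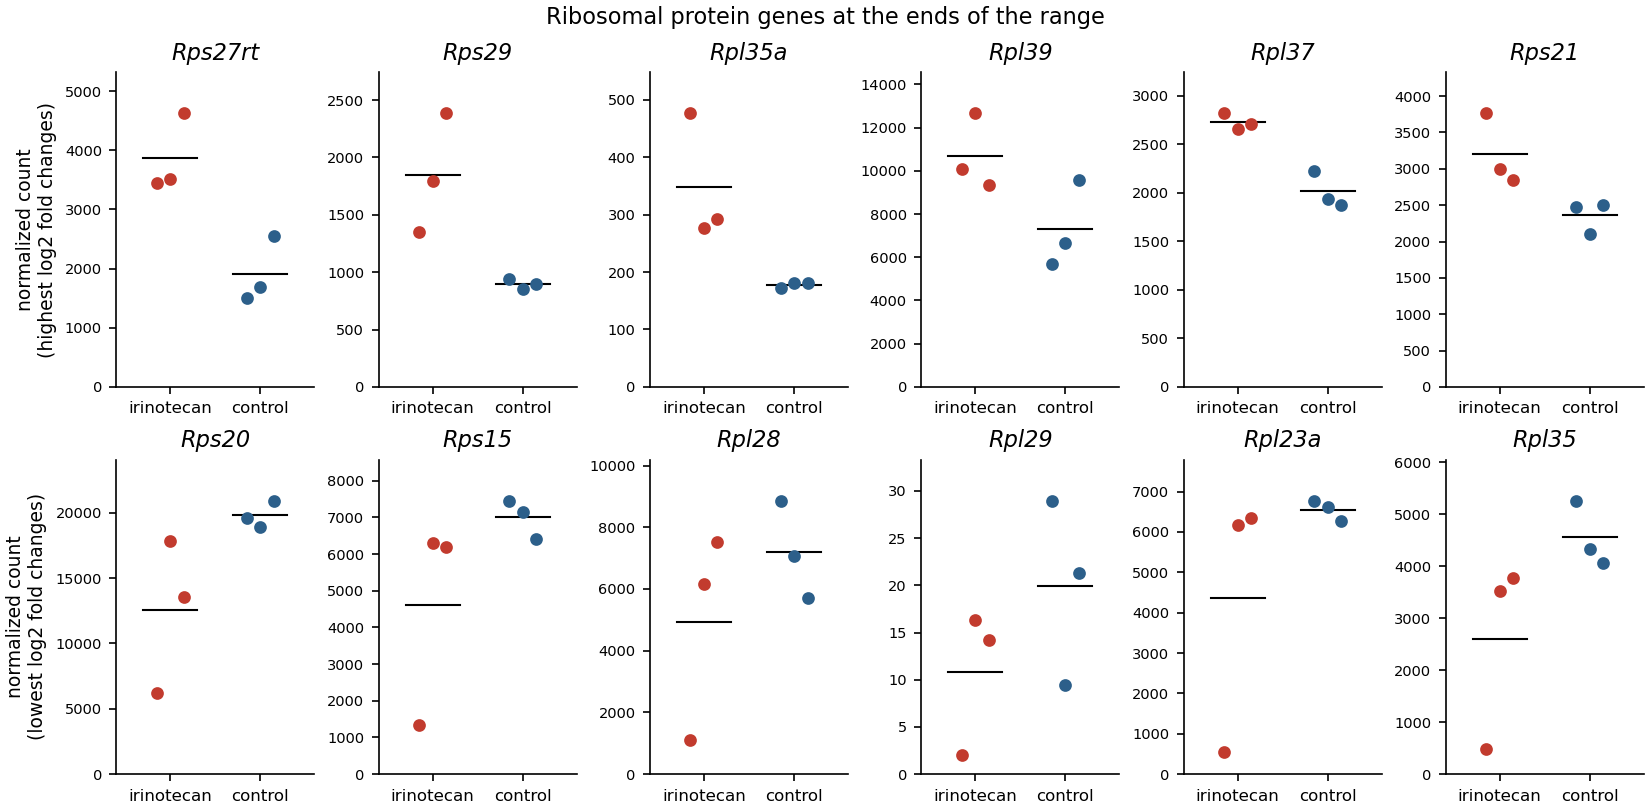
Normalized counts of the 6 members with the highest log2 fold change (upper panels) and the 6 with the lowest (lower panels); each point is 1 library, in replicate order within a group, and lines are group means (n = 3). In the lower panels the first irinotecan library is the lowest point throughout, for example 483 for Rpl35 and 551 for Rpl23a.

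The P-stalk proteins, which recruit the elongation factors, differed in sign, and none was called. Rplp1 had 14653, 25709.5 and 20166 normalized counts in the irinotecan libraries, against 28438, 25305 and 29922 in the controls. Rplp0 had 25766, 26621 and 22671 normalized counts in the irinotecan libraries, against 20380.1, 21649.7 and 24017 in the controls. Rplp2 had 4998, 6681 and 5907 normalized counts in the irinotecan libraries, against 5125, 4649 and 6025 in the controls. Only in Rplp1 did the irinotecan mean lie below the control mean, with a log2 fold change of -0.50 (SE 0.22, limma adjusted p = 0.743). The second irinotecan library overlapped the controls, and without the first the log2 fold change of Rplp1 was -0.29. The log2 fold changes of Rplp0 and Rplp2 were 0.18 (SE 0.15) and 0.15 (SE 0.16), and those of Rpl5 and Rpl11, the Mdm2-binding pair, were -0.19 (SE 0.14) and -0.11 (SE 0.16). Rpl5 had 15761, 17774 and 17717 normalized counts in the irinotecan libraries, against 19251, 19461 and 19698 in the controls. The irinotecan values of Rpl5 lay below all controls, while those of Rpl11 overlapped. Rpl13a, which blocks translation of inflammatory mRNAs when released from the ribosome, had 308, 596 and 595 normalized counts in irinotecan tumours, against 601, 642 and 519 in controls, and overlapped between groups.

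Of the 6 paralogues, Rps27rt was higher in irinotecan tumours and Rpl22l1 lower, both without overlap in their own entries, and neither passed limma. Rps27rt had 3445, 3518 and 4624 normalized counts in the irinotecan libraries, against 1500.5, 1695 and 2551 in the controls. Rps27 had 3857, 6270.1 and 5264 normalized counts in the irinotecan libraries, against 3433, 3669.8 and 5009 in the controls. Rps27rt had a log2 fold change of 1.04 (SE 0.22, limma adjusted p = 0.662) and 1.11 without the first irinotecan library (limma adjusted p = 0.0694). DESeq2 called it with all libraries (1.01, adjusted p = 0.0122) but not without that one (adjusted p = 0.115). The authors' deposited table lists Rps27rt with an adjusted p of 0.0122 beside Rps29 with 0.00508. They are the 2 members called there (0.111% of its genes are called higher and 0.0752% lower). The authors also used DESeq2, so the fit with all libraries repeats their test on the same reads and is not a separate result. The log2 fold change of Rps27 itself was 0.34 (SE 0.22, limma adjusted p = 0.743). Given the identical coding sequences, the share of Rps27rt in these reads is uncertain. Sums with near-identical copies took in only copies outside the family, so Rps27 and Rps27rt were not merged. The counts of the pair together were not tested. Osbpl10, on the opposite strand over Rps27rt, had a mean of 5.69 normalized counts.

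Rpl22l1 can take the place of Rpl22 and is repressed by it in mouse cells. Rpl22l1 had 833, 1781 and 1567 normalized counts in the irinotecan libraries, against 2415, 2035 and 2321 in the controls. Rpl22 had 3241, 4103 and 3684 normalized counts in the irinotecan libraries, against 3970.4, 3973 and 3892 in the controls. Each irinotecan value of Rpl22l1 was below every control, with a log2 fold change of -0.76 (SE 0.27, limma adjusted p = 0.743) and -0.43 without the first irinotecan library (limma adjusted p = 0.204). The log2 fold change of Rpl22 was -0.11 (SE 0.13).

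The other paralogues overlapped between groups. Rpl39l had 536, 838 and 811 normalized counts in the irinotecan libraries, against 898, 757 and 816 in the controls. The 6 of 8 listed testis and germ cell markers found in the table all had a mean under 10 normalized counts (summed over the list, 1.01 to 23.6 in irinotecan tumours and 6.54 to 13.6 in controls). The log2 fold change of Rpl39l was -0.20 (SE 0.19), and Rpl7l1, a relative of Rpl7, had -0.14 (SE 0.14), beside -0.09 (SE 0.14) for Rpl7. Rpl36al rested on 9 to 13 reads per irinotecan library and 10 to 27 per control, with a log2 fold change of -0.62 (SE 0.50). Rpl3l, the form of heart and skeletal muscle, had 0, 4 and 2 reads in irinotecan tumours and 0, 0 and 1 in controls, so that a difference was not detectable at this depth. Skeletal muscle markers summed to 168, 230 and 865 normalized counts in the irinotecan libraries, against 375, 33.5 and 283 in the controls. Rpl3, its usual partner, had a log2 fold change of 0.19 with the first irinotecan library and -0.06 without it. Rps4x, the X-linked partner of Rps4l, had a log2 fold change of -0.02 (SE 0.15).

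Of the 6 members with the highest fold change, 5 encode very short proteins. Among the 82 genes tested, 11 encode fewer than 100 residues, a class drawn after the fold changes had been seen and therefore given without a test. They are Rpl41, Rpl39l, Rpl38, Rps28, Rps27, Rpl37a, Rps21, Rpl37, Rpl39, Rps29 and Rps27rt. Rps27 and Rps27rt, identical in coding sequence, are counted there as separate genes. Their median log2 fold change was 0.37, with 8 of 11 positive, against -0.18 with 16 of 71 positive for the members of 100 or more residues. Without the first irinotecan library the medians were 0.50 with 11 of 11 positive and -0.06 with 22 of 71 positive. Other protein-coding genes under 100 residues, 211 in number, had medians of -0.18 with that library and 0.01 without it.

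Within this class the median deviation from the control mean was 0.10, 0.55 and 0.43 in the irinotecan libraries, against 0.07, -0.12 and 0.00 in the controls. In 4 of the 11, Rps29, Rps27rt, Rps21 and Rpl37, all irinotecan values lay above all controls, beside 6.68% of all genes. The class was drawn after these values were seen, so the count only describes them. Rps27rt enters the count by its own entry alone. The entry of Rps27, with the same coding sequence, overlapped between groups. The irinotecan values of the lowest member, Rpl41, were 2082 in the first library and 5377 and 7255 in the others, against 5559, 4891 and 4629 in the controls. With GC and length trends removed within each library the class median was 0.51, and with near-identical copies summed it was 0.37. Leaving out any 1 library gave medians of 0.28 to 0.50. Over all 82 genes the rank correlation between coding length and fold change was weak, at -0.10 with all libraries and -0.31 without the first irinotecan library (Spearman's rho across genes, which share libraries and are not independent).

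**Figure D3:**
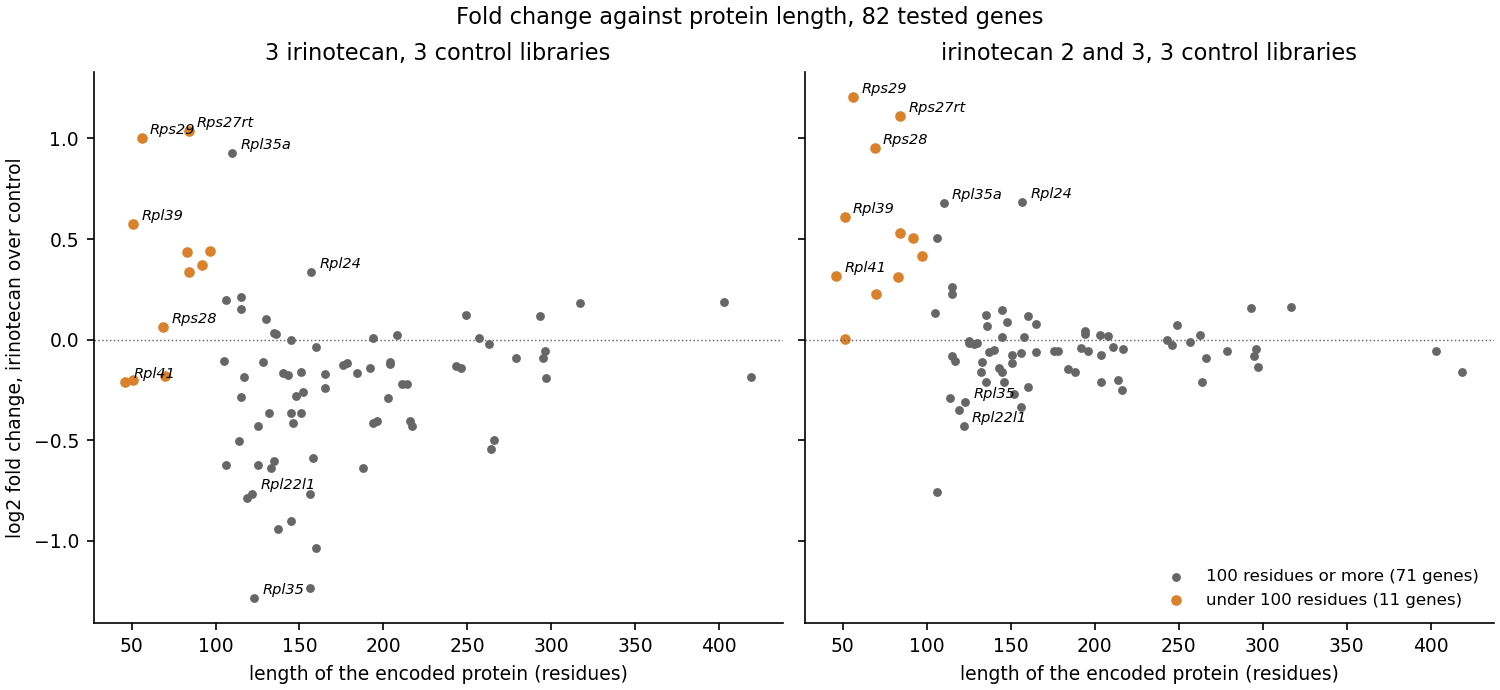
Log2 fold change of irinotecan over control against the length of the encoded protein in residues, with all 6 libraries (left) and without the first irinotecan library (right); each point is 1 of the 82 genes tested, and orange points mark the 11 under 100 residues. The orange points have a median of 0.37 on the left and 0.50 on the right, where none lies below 0.

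Levels per length differed widely between the genes and little between the groups. Level is the normalized count per kilobase of the deposited gene length, and its median over the tested genes was 3587 in irinotecan tumours and 3893 in controls. Rplp1 had the highest level, at 40433 ± 11078 in irinotecan tumours and 55888 ± 4723 in controls (mean ± SD, n = 3 each). Rps3a1, of the small subunit, had 22302 ± 7825 in irinotecan tumours and 30905 ± 778 in controls. Rpl4, of the tunnel wall, had 16301 ± 1155 in irinotecan tumours and 18509 ± 784 in controls. In controls the spreads of these 3 did not overlap, while in irinotecan tumours neighbours in this order did. Rpl26 had 19.9 ± 6.50 in irinotecan tumours and 19.4 ± 2.74 in controls. Rpl29 had 9.66 ± 6.85 in irinotecan tumours and 17.7 ± 8.76 in controls. Rpl36al was the lowest of the tested genes, at 8.17 ± 1.73 in irinotecan tumours and 13.6 ± 5.80 in controls, and the spreads of these last 3 overlapped in controls. The order of the 82 levels was nearly the same in both groups (Spearman's rho 0.97 across genes).

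Several of the lowest levels belonged to genes whose annotated copies held most of the reads. At 95% identity over 80% of the coding sequence or more, 76 of the 83 genes had a copy among annotated transcripts outside the family. There were 578 such copies, of which 377 are entries of the deposited table. Rps27 and Rps27rt, identical in coding sequence, were not counted as copies of each other. For 10 tested genes less than 50% of the control reads of the gene plus its copies fell on the gene itself, with Rpl26 at 0.248%, Rpl29 at 1.66%, Rps2 at 5.11% and Rpl21 at 5.26%. Summed with its copies, Rpl26 had 11209, 12508 and 10376 normalized counts in irinotecan tumours, against 11316, 11128 and 11468 in controls, while its own entry had 22.6, 24.1 and 39.5 in irinotecan tumours and 28.0, 24.0 and 32.0 in controls. The own level of such genes is uncertain, since the split of reads between near-identical copies depends on the counting. Rpl21 had the most copies, 57, and Rpl7a followed with 31. Over the 82 genes the number of copies had a rank correlation of -0.04 with the level and of -0.47 with the gene's own share (Spearman's rho across genes).

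**Figure D4:**
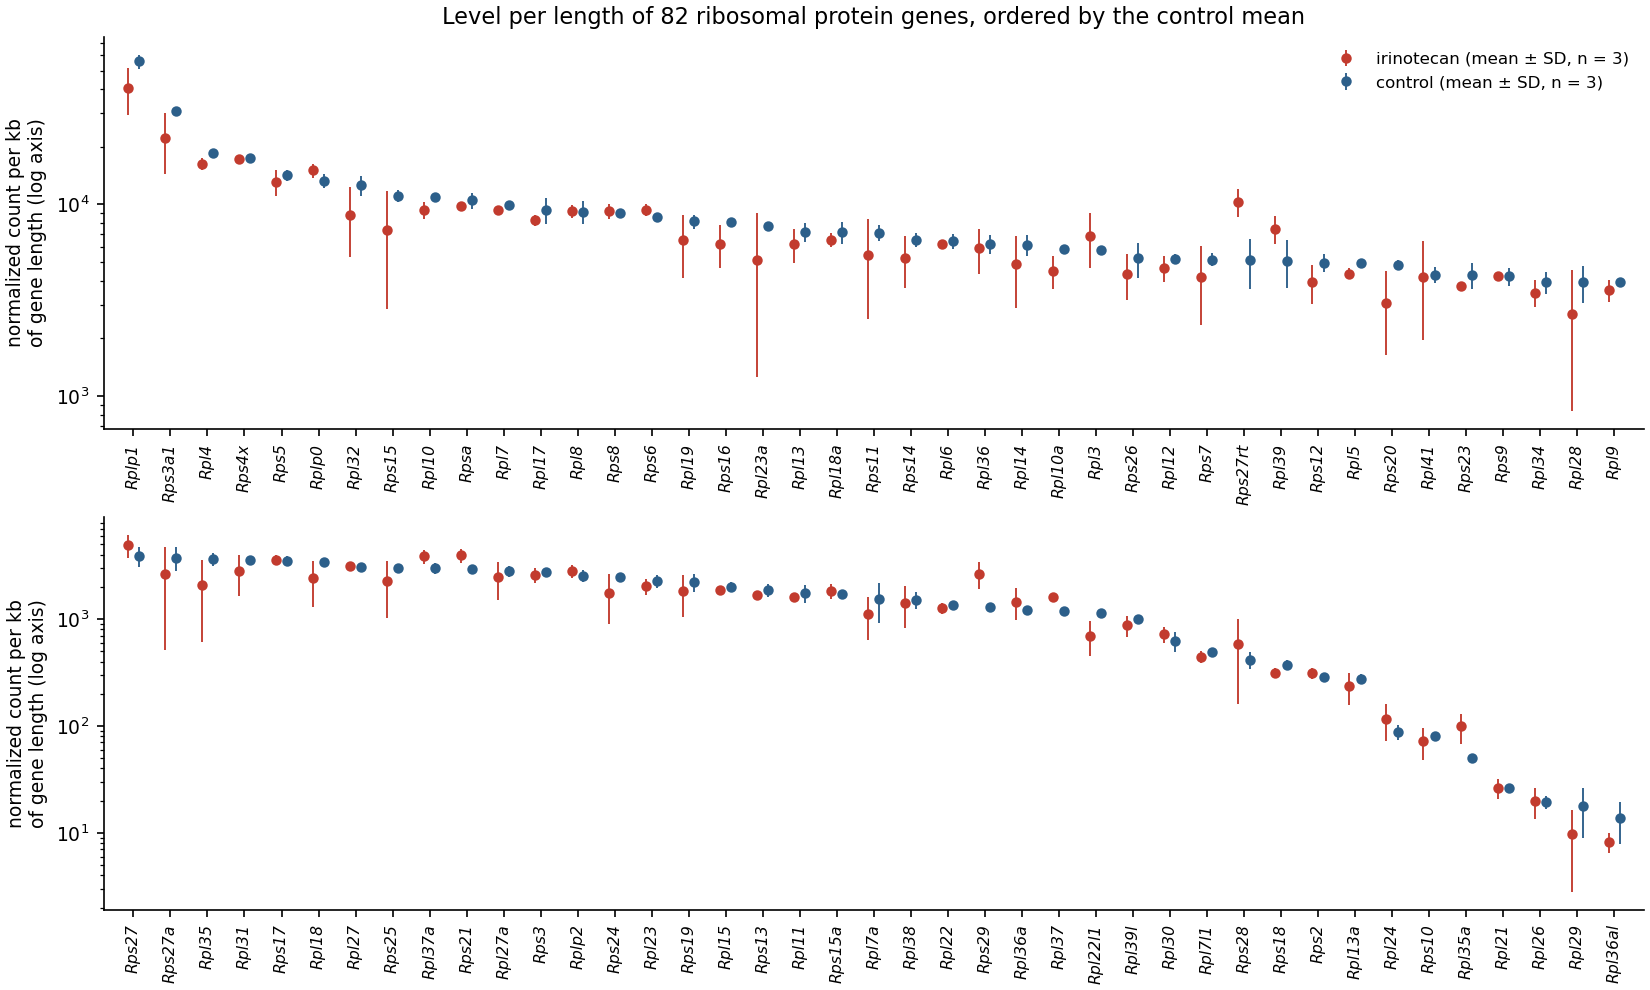
Level per length of the 82 tested genes on a log axis, as normalized counts per kilobase of gene length, mean ± SD over 3 libraries a group, ordered by the control mean from left to right over both panels. Levels fall from 55888 for Rplp1 to 13.6 for Rpl36al in controls, and in most genes the 2 groups lie close together.

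A TOP-like motif was looked for at the start sites. RefSeq windows of GRCm38.p6 were found for 63 of the 83 genes, 74 windows in all, and 30 bases around each annotated start were searched on the coding strand alone for a C followed by at least 4 pyrimidines (C or T). The motif was in 58.1% of the members' windows, against 36.4% of 32851 windows of all genes, and it began exactly at the annotated start in 18.9% against 2.51%. Windows were found for 5 of the 6 genes with the highest fold change (Rps27rt, Rpl35a, Rpl39, Rpl37 and Rps21) and for 3 of the 6 with the lowest (Rps15, Rpl28 and Rpl35). All windows of these genes, and that of Rps27 beside Rps27rt, are printed with the motif in capitals, 15 bases before and 15 after the start, 5′ to 3′, with starts numbered along the chromosome where a gene has several. A match is a description of the letters and does not show a site in use.
Rps27rt: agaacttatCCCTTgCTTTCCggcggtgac
Rps27: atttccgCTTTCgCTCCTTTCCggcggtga
Rpl35a, start 1: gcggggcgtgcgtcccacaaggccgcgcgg
Rpl35a, start 2: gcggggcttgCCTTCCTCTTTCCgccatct
Rpl35a, start 3: gcgcctgtggaggtgaggggggttcctgct
Rpl39: cctaagctccgCCTCTagcgaCTTCTTCTa
Rpl37: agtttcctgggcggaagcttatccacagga
Rps21, start 1: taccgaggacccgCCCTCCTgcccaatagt
Rps21, start 2: ggacaagtgagcaggtaggcctcggtgcgg
Rps15: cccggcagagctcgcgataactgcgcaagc
Rpl28: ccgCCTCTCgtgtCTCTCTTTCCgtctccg
Rpl35: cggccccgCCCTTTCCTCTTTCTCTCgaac

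The motif was in 4 of the 8 windows at the upper end and in 2 of the 3 at the lower end. Rpl37 and Rps15 had none, and neither had the other starts of Rpl35a and Rps21. Rps27 and Rps27rt, identical in coding sequence, differ in this window. The windows lie on GRCm38.p6 at chr9:114982725-114982754 (minus strand) for Rps27rt and chr3:90213634-90213663 (minus strand) for Rps27.

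Rack1 and Fau, other genes whose products sit on cytosolic ribosomes, were not called. Rack1, a signalling scaffold on the small subunit, had a log2 fold change of -0.15 (SE 0.15), and Fau, which carries the small subunit protein eS30, had -0.14 (SE 0.18). Rack1 lay below all controls in each irinotecan library.

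Neighbouring gene groups were also low in the first irinotecan library, with exceptions. The 77 mitochondrial ribosomal protein genes had a median log2 fold change of -0.19 with 12 positive, and -0.01 with 35 positive without that library. Mrps23 and Mrpl12 had the smallest p of these. Mrps23 had 272, 289.9 and 288 normalized counts in the irinotecan libraries, against 376, 332 and 399 in the controls. Mrpl12 had 121, 267 and 256 normalized counts in the irinotecan libraries, against 341, 341 and 309.9 in the controls. Both lay below all controls, with log2 fold changes of -0.38 and -0.70, and neither was called. Without the first irinotecan library these were -0.35 and -0.34. The 90 ribosomal protein pseudogenes tested had a median of -0.18 with 38 positive, and 0.04 without that library. Rpl9-ps6 had 669, 474 and 649 normalized counts in the irinotecan libraries, against 347, 266 and 316 in the controls. Rpl34-ps1 had 388, 392 and 302 normalized counts in the irinotecan libraries, against 666, 647 and 569 in the controls. These 2 lay on opposite sides of the controls without overlap, with log2 fold changes of 0.94 and -0.80 and a limma adjusted p of 0.662 each. In the authors' deposited table both pass a DESeq2 adjusted p under 0.05 (0.0137 and 0.0295), beside 0.111% of its genes called higher and 0.0752% lower. Rps13-ps2, Rpl10-ps3 and AC121151.1, a copy close to Rpl7a, also pass and lie higher in irinotecan tumours. All of these are 97.7% (AC121151.1) to 100% (Rps13-ps2 and Rpl10-ps3) identical to their closest members, so the assignment of their reads is uncertain.

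Translation factors and ribosome biogenesis factors had negative medians with and without the first irinotecan library. The median log2 fold change of 35 translation factors was -0.09 with 7 positive, and -0.12 with 2 positive without that library. Naca had 4126, 10245 and 8483 normalized counts in the irinotecan libraries, against 10712, 10291 and 11006 in the controls, and Eef1b2 had 8908, 11418 and 11362 normalized counts in the irinotecan libraries, against 12816, 12271 and 12972 in the controls. Naca guards nascent chains and Eef1b2 recharges the elongation factor that brings in tRNA, and both lay below all controls. Of 54 biogenesis factors 13 were positive, with a median of -0.14, and without the library 9 were positive with a median of -0.11. In 13 of the 54 all irinotecan values lay below all controls and in 0 above, beside 7.89% and 6.68% of all genes. Nhp2 had 245, 531 and 620.3 normalized counts in the irinotecan libraries, against 866, 652 and 755 in the controls. Pes1 had 1014, 1125 and 1215 normalized counts in the irinotecan libraries, against 1466, 1253 and 1439.9 in the controls. Nhp2, of the H/ACA particles that place pseudouridine, had a log2 fold change of -0.80 (SE 0.32) and Pes1, of large subunit assembly, one of -0.31 (SE 0.14). Without the first irinotecan library these were -0.39 and -0.24. The median deviation from the control mean was -0.02, -0.09 and -0.15 for translation factors in the irinotecan libraries, against 0.02, -0.06 and 0.05 in the controls. For biogenesis factors it was -0.26, -0.10 and -0.12 in the irinotecan libraries, against 0.03, -0.13 and 0.10 in the controls, so that the second control lay below 2 of the irinotecan libraries. No member of either list was called by limma.

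Of the regulators of ribosome production, 19 tested genes of the MYC and mTOR pathways had a median of -0.06 with 9 positive. Myc, the transcription factor that drives ribosome genes, was among the lower ones. Myc had 724, 2164 and 1912 normalized counts in the irinotecan libraries, against 3058, 2385 and 2875 in the controls. The irinotecan values lay below all controls, with a log2 fold change of -0.94 (SE 0.37, limma adjusted p = 0.743) and -0.44 without the first irinotecan library. Akt1s1, an inhibitor within mTORC1, had a log2 fold change of -0.46 (SE 0.19, limma adjusted p = 0.743), and -0.27 without the first irinotecan library.

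**Figure D5:**
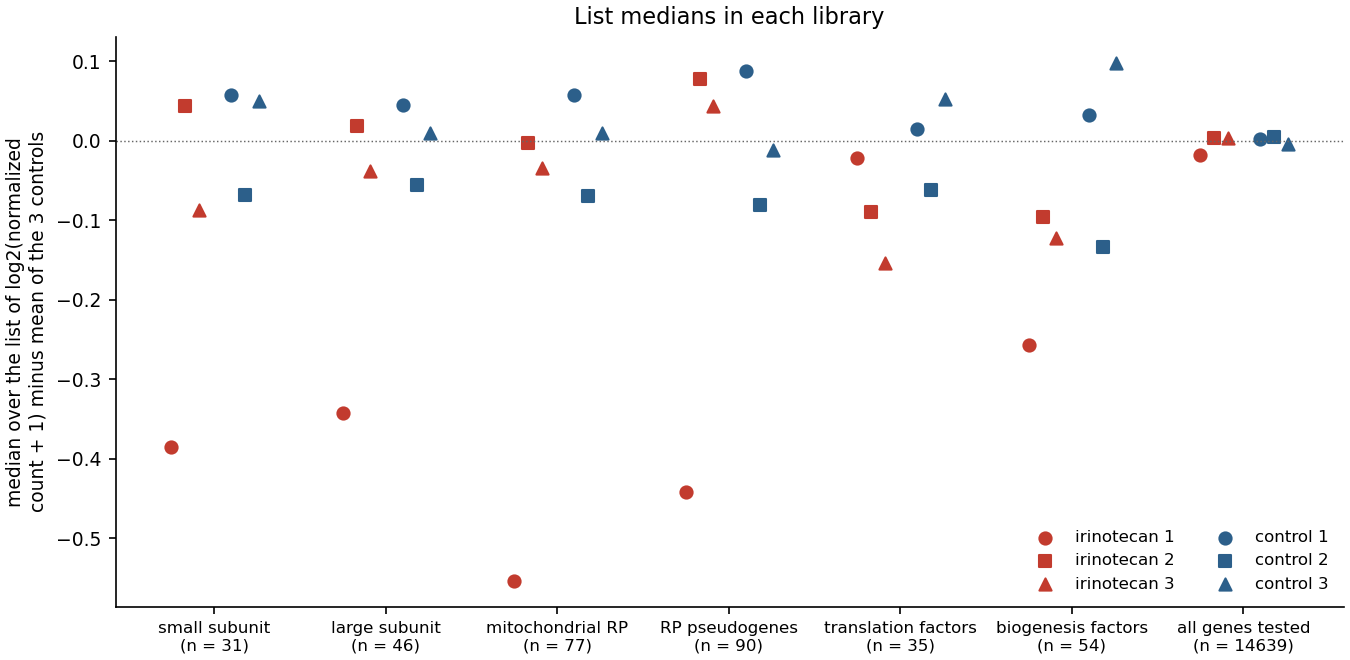
Median over each gene list of log2(normalized count + 1) minus the gene's control mean, 1 point per library (RP, ribosomal protein; n is the number of genes tested). The first irinotecan library lies at -0.39, -0.34, -0.55 and -0.44 for small subunit, large subunit, mitochondrial and pseudogene lists, and at -0.02 for translation factors and for all genes.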

How the data were processed

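Total RNA of 6 labelled samples of subcutaneous CT26 tumours, 3 given irinotecan and 3 given solvent, was sequenced. The authors deposited 1 table of 25251 genes. The deposited signal per library is a normalized count that the authors made by dividing reads per gene by 1 factor per library, as the values show: every value was a whole multiple of 1 unit (tolerance 1e-06), and dividing by that unit gave back whole reads. Log2 fold changes made by the authors stand beside these, per the file headers. The p-values in the table, raw and adjusted, are also the authors', per the file headers. The submitters' processing notes name HISAT2 2.0.5, featureCounts 1.5.0-p3, DESeq2 1.20.0, fastp and CASAVA, the build GRCm38 (mm10), and no strand setting. Genes that share sequence may share reads, and without strand an antisense neighbour cannot be told apart (34 members overlap another gene, 20 of them on the opposite strand).

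Genes with a mean of at least 10 normalized counts (14639) were tested with limma 3.58.1 in R 4.3.3 on log2(normalized count + 1), with a mean-variance trend, group as the single term and Benjamini-Hochberg adjustment over all of them at 0.05. DESeq2 1.42.0 and edgeR 4.0.16 on recovered reads were alternatives, and the tests were tried on simulated data. Log2 SEs are limma's. Depth was 13940650 to 15656894 reads per library, and as no source mentions molecular identifiers, it bounds the counting error alone.

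Coding sequences were taken from GENCODE M21, in which all 83 members are found, 81 with the coordinates of the deposited table, and copies were sought with BLAST 2.17.0. Promoter windows are RefSeq's. A further gene of cytosolic ribosomes and 1 coding sequence are not reported here. Members and lists were chosen with earlier results of these data known. Named were the paralogues with their usual partners, a panel by role, the 6 members with the highest and the 6 with the lowest fold change, the 3 with the highest and lowest level, and the 2 of each neighbouring list with the smallest p. Other members were named after their values were seen.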

Additional observations from a re-analysis of the deposited data

How the results depend on the processing

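Under limma on the authors' scaling, the count of called members stayed at 0 with pseudocounts of 0.5 and 10 and without the low-value filter. It also stayed at 0 among protein-coding genes only, with a length trend or GC and length trends removed, and with near-identical copies summed. The same held at an adjusted p of 0.1. Limma under quantile normalization and TMM scaling, which change that scaling, also called 0 members, and edgeR called 0 of 14639 genes. DESeq2 called 47 genes and 2 members, and estimated library weights 52 genes and 2 members, the weight of the first irinotecan library being 0.127. Without that library DESeq2 called 151 genes and 4 members, edgeR 2 genes and 1 member, and limma on summed copies 7 genes and 1 member. The analyses with GC trends, summed copies, coding length, or DESeq2 and edgeR without that library were chosen after seeing the data, and the cause of each change was not tested.

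Leaving out each library in turn gave 0 to 2 genes called, 0 to 1 members called and 18 to 33 members with a positive fold change. The members' median then ran from -0.234 to -0.0396, that of small subunit genes from -0.244 to -0.00547, that of large subunit genes from -0.225 to -0.0472 and their difference from -0.0417 to 0.0382. The pseudogene median ran from -0.256 to 0.044, and the difference of the read shares from -0.866 to -0.09 percentage points. The value nearest 0 in each was the one without the first irinotecan library, except for the difference of the subunit medians. Without the first irinotecan library 15 of the 82 members had the opposite sign, and 2 to 6 without each of the others. Of the genes named by rule, log2 fold changes that changed sign ran from -0.221 to 0.0407 for Rpl11, -0.45 to 0.0256 for Rpl13a, -0.246 to 0.145 for Rpl26, -0.0564 to 0.362 for Rpl3, -0.318 to 0.00425 for Rpl39l and -0.0511 to 0.0238 for Rps4x.

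The small subunit median was -0.00864 by DESeq2 and -0.00534 by edgeR without that library, and the members' median -0.0187 with summed copies without it. The difference of large and small subunit medians, near 0 in each fit, was 0.0465 by DESeq2, 0.0456 by edgeR, -0.0411 and -0.0414 by the same tools without that library, 0.0628 with the length trend removed, 0.069 with GC and length trends removed, and -0.0614 with summed copies. The pseudogene median was 0.801 among the few annotated as coding, and 0.0588 with summed copies without that library. Removing the length trend gave a median of -0.0213 for translation factors and 0.0245 for MYC and mTOR regulators, and 0.0411 for the last with GC also removed. Levels per kilobase of coding sequence had a control median of 15721.

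Under the alternatives that keep all libraries 0 to 11 members had the opposite sign, and 16 to 17 with DESeq2, edgeR or summed copies without the first irinotecan library. The uncalled genes named by rule that turned sign had these values. By DESeq2 and edgeR without the first irinotecan library, the log2 fold changes were 0.0203 and 0.0233 for Rpl13a, -0.0544 and -0.0513 for Rpl3, 0.000105 and 0.0032 for Rpl39l, 0.000936 and 0.00409 for Rps3, and 0.0229 and 0.0261 for Rps4x. With summed copies without it they were 0.0226 for Rpl13a, 0.056 for Rpl29, -0.126 for Rpl3 and 0.00425 for Rpl39l. Library weights gave -0.0168 for Rpl3 and 0.0132 for Rps4x. With GC and length trends removed they were 0.0211 for Rpl11, 0.0311 for Rps4x and 0.0377 for Rpsa, and with the length trend alone 0.0205 for Rpl7 and 0.128 for Rps4x. Quantile normalization gave 0.0638 for Rps4x, and a pseudocount of 0.5 gave -0.000522 for Rpl26.

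Replicate numbers are shared by the groups. Deviations of same-numbered libraries from their group means had correlations of r -0.114, -0.00869 and -0.213. Deviations from a group mean cancel within the group, so these values cannot decide whether the numbers pair samples. The fit with a replicate block called 0 genes and 0 members, with a members' median of -0.168. Rpl29, Rpl36al, Rpl26 and Rpl3l rest on few reads of their own, which limits their values. For Rpl26, Rpl29 and Rpl36al most control reads of the gene plus its near-identical copies fell on copies. The assignment of reads thus also limits these genes.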
